A study of Mus musculus with 15 samples.

Results

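The colony-stimulating factors and the receptors that mark monocytes and macrophages were followed in whole mouse lung after bleomycin through 10 genes, chosen by name. They were the growth factors Csf1, Csf2 and Il34, their receptor genes Csf1r, Csf2ra and Csf2rb, the chemokine receptors Ccr2 and Cx3cr1, the chemokine Cx3cl1 and the macrophage surface gene Adgre1. All 10 were found by symbol among the 33340 genes of the count table, and all 10 passed the filter on low counts that left 17457 genes for testing.

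CSF1 and IL-34 are the ligands of CSF1R, the receptor on which most tissue macrophages depend for survival. CSF2, also called GM-CSF, signals through an alpha chain (Csf2ra) that binds it and a beta chain (Csf2rb) shared with the receptors for IL-3 and IL-5, and alveolar macrophages need it to mature. CCR2 draws inflammatory monocytes out of the marrow towards CCL2, CX3CR1 marks patrolling monocytes and some tissue macrophages and binds the membrane-tethered CX3CL1, and Adgre1 encodes F4/80, a surface protein of mouse macrophages.

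Polyadenylated RNA was sequenced from whole lungs of C57BL/6 mice, which the study's methods give as adult males. Bleomycin, which breaks DNA and leaves the lung scarred, was given into the trachea at 5 U/kg. Lungs were taken at day 0 (4 libraries, controls by their titles), day 7 (4 libraries), day 14 (4 libraries) and day 21 (3 libraries). Day 0 replicate 4 was titled as a control although its treatment label named bleomycin, and it was kept in day 0. No group carried an altered allele, no untreated lungs were taken at the later days, and the labels do not say whether each library came from a separate animal, so p-values measure the spread between these libraries. The series description gives 3 replicates per time point, fewer than the titles for days 0, 7 and 14, and the titles were followed.

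Promoter sequence is shown for 2 genes that rose after bleomycin, Csf2ra and Csf1, because they differ in a motif of the myeloid factor PU.1. RefSeq windows of 250 bases before the start, on GRCm38.p6, matched 6 of the 10 genes by symbol (Csf1, Csf2, Csf2ra, Ccr2, Cx3cr1 and Cx3cl1). Both strands were searched for the PU.1 core GAGGAA and for the AP-1 motif TGANTCA, whose matches cannot overlap. The windows are written 5′ to 3′ in the direction of the gene, and capitals mark GAGGAA. The first lies at chr19:61228419-61228668 and the second at chr3:107760470-107760719, both on the minus strand.
Csf2ra: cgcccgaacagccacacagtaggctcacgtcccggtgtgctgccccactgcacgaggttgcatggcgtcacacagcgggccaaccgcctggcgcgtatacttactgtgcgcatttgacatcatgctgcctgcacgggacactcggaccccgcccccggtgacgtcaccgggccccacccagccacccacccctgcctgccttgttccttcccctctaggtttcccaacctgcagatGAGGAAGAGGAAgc
Csf1: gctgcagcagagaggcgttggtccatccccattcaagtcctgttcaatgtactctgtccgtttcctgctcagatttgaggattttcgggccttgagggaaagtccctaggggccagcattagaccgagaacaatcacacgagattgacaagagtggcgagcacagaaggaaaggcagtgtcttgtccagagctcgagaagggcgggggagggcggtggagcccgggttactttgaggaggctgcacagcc
The Csf2ra window held GAGGAA side by side at positions -14 and -8, counted back from the start to the first base of the motif. The Cx3cl1 window held it at positions -93 and -66, and the other 4 windows held none. The starts are those of RefSeq, and the GENCODE gene spans given below can begin further upstream. Those spans cover the Cx3cr1 window, most of the Cx3cl1 and Ccr2 windows and the end of the Csf2ra window. Both Cx3cl1 matches and the Csf2ra match at -8 thus lie inside the annotated genes. Among 27025 promoter windows of this length, 23.1% held GAGGAA and 6.87% held TGANTCA, which was found in none of the 6. A match of letters is a description and says nothing of binding.

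The libraries held 15652008 to 18020661 counts and detected 22100 to 23970 genes. Mitochondrial genes (16 in the table) took a share of the counts that parted libraries of the same day. It was 2.28% and 2.31% in day 0 replicates 1 and 2 but 4.22% and 4.05% in replicates 3 and 4, lay between 2.03% and 2.15% in all day 7 libraries, was 2.10% in day 14 replicate 1 against 3.74% to 4.14% in the other day 14 libraries, and ran from 2.66% to 4.01% at day 21. The labels name no batch. Lung identity genes were high in all groups, with Sftpc of alveolar type II cells at a mean of 19388 CPM, its counts scaled to library size, at day 0 and 3710 CPM at day 21.

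A gene was called changed where its adjusted p lay under 0.05 and its fold over 1.5. At day 7, 1 of the 10 genes was higher than at day 0 and none was lower, while 16.1% of all genes tested changed (8.78% upward and 7.36% downward). At day 14, 5 were higher and none lower, against 23.1% of all genes changed, 12.0% upward and 11.2% downward. At day 21, 4 were higher and none lower, against 22.5% changed, 12.4% upward and 10.1% downward. The median log2 fold change of the 10 genes was 0.47, 0.63 and 0.58 at days 7, 14 and 21, beside 0.01, 0.02 and 0.02 over all genes, where a log2 value of 1 is a 2-fold difference. These 3 comparisons share the day 0 libraries. In whole tissue, more cells of a type and more RNA per cell cannot be told apart.

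Adgre1 passed at all 3 days, Csf1, Csf2ra and Csf2rb at days 14 and 21, and Csf1r at day 14. Csf2, Il34, Ccr2, Cx3cr1 and Cx3cl1 passed at no day against day 0. Between later days, Csf2ra was higher at day 14 than at day 7 (1 of 10 genes, where 6.00% of all genes changed and 2.77% rose) and Csf2 was lower at day 21 than at day 7 (1 of 10, where 9.54% changed and 4.34% fell). Day 21 against day 14 gave 0 changed genes among the 10 in edgeR, DESeq2 and limma voom, with 1 of the 10 at an unadjusted p under 0.05. Over all genes that comparison gave 0 in edgeR, with 1714 at an unadjusted p under 0.05, and 106 in DESeq2.

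**Figure D1:**
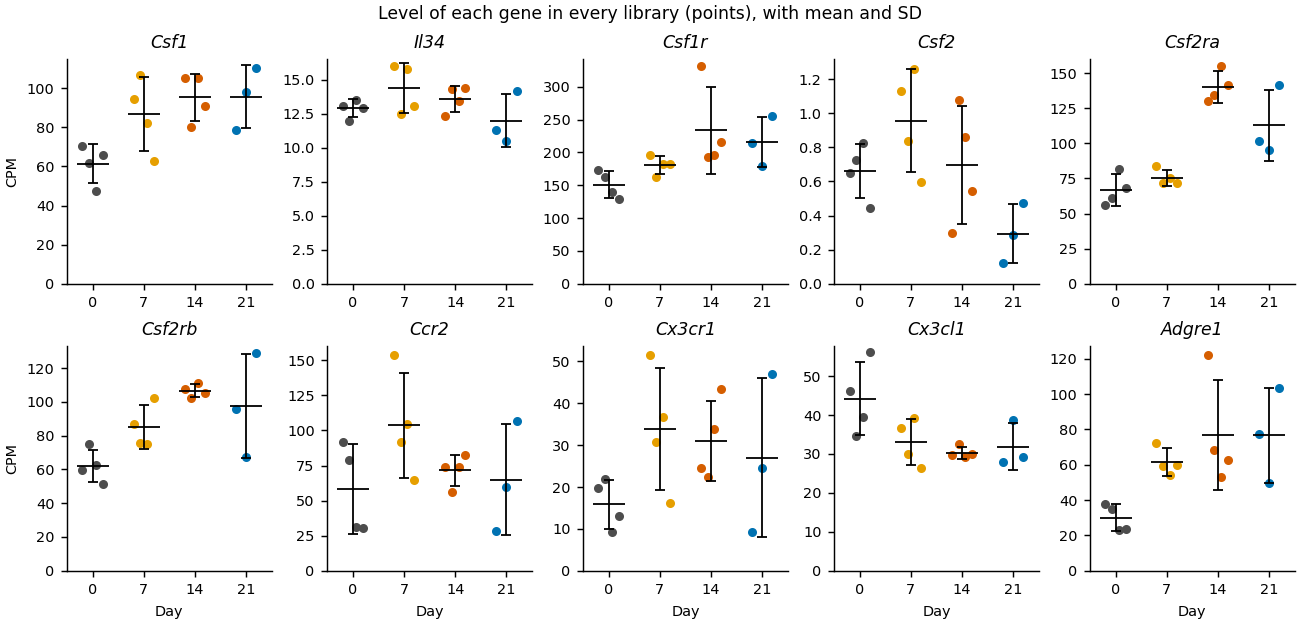
Level of each of the 10 genes in CPM on a linear axis from 0, by day after bleomycin. Each point is a library, the long bar is the mean of the day and the whiskers are 1 SD (4 libraries at days 0, 7 and 14 and 3 at day 21). Every Adgre1 library after bleomycin sits above the day 0 libraries, the Csf2ra libraries step up at day 14, and Ccr2 and Cx3cr1 spread widely within a day.

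Csf1, the main growth factor of macrophages (ENSMUSG00000014599, chr3:107741048-107760469, minus strand), rose by days 14 and 21. Its levels were 70.3, 61.9, 47.6 and 66.1 CPM at day 0 and 94.4, 107.0, 82.3 and 62.7 CPM at day 7. They were 105.1, 80.2, 105.3 and 90.7 CPM at day 14 and 78.4, 98 and 110.4 CPM at day 21. All libraries of days 14 and 21 lay above all of day 0, whereas day 7 replicate 4 fell among the day 0 libraries. Against day 0 the log2 fold change was 0.63 (SE 0.17, adjusted p = 0.00891) at day 14 and 0.64 (SE 0.18, adjusted p = 0.0139) at day 21. At day 7 it was 0.49 (SE 0.17, adjusted p = 0.0406), under the fold threshold. The changes lay close to that threshold. Leaving out day 0 replicate 3 (0.51), day 14 replicate 1 (0.56) or day 14 replicate 3 (0.58) ended the day 14 call, and leaving out day 0 replicate 3 (0.50), day 21 replicate 2 (0.58) or day 21 replicate 3 (0.48) ended that of day 21. Day 7 passed without its replicate 4 (0.62, adjusted p = 0.0125).

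Il34, which encodes the other ligand of CSF1R (chr8:110741829-110805924, minus strand), held a narrow range. It measured 13.1, 12, 13.5 and 12.9 CPM at day 0, 16, 12.5, 15.8 and 13.1 CPM at day 7, 12.3, 14.3, 13.4 and 14.4 CPM at day 14 and 11.3, 10.5 and 14.2 CPM at day 21. The groups overlapped at each day, and the log2 fold changes were 0.16 (SE 0.13), 0.08 (SE 0.13) and -0.10 (SE 0.14), with adjusted p of 0.392, 0.66 and 0.64. The balance of the 2 ligands was read within each library as log2 CPM of Csf1 minus that of Il34. It ran from 1.81 to 2.42 at day 0, from 2.24 to 3.09 at day 7, from 2.47 to 3.08 at day 14 and from 2.79 to 3.20 at day 21, so that days 14 and 21 lay wholly above day 0. No test was made of this difference.

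Csf1r, the receptor of both ligands (ENSMUSG00000024621), was higher at day 14. Levels were 173.1, 162.1, 140.2 and 128.9 CPM at day 0, 195.6, 163.2, 183.1 and 182.1 CPM at day 7, 332.1, 192.7, 195.8 and 215.5 CPM at day 14, and 214.9, 179.5 and 255.2 CPM at day 21. Every library of days 14 and 21 exceeded every day 0 library, and day 14 replicate 1 stood far above the others of its day. The log2 fold change was 0.26 (SE 0.17, adjusted p = 0.27) at day 7, 0.63 (SE 0.17, adjusted p = 0.00944) at day 14 and 0.52 (SE 0.18, adjusted p = 0.0394, under the fold threshold) at day 21. Without day 14 replicate 1 the day 14 value fell to 0.39 (adjusted p = 0.0323) and the call was lost, as it was without day 0 replicate 3 (0.58) or replicate 4 (0.54). Day 21 passed without its replicate 2 (0.60, adjusted p = 0.0385). Of its 5774 exon bases, 873 overlap Hmgxb3 on the opposite strand, and the library kit does not mark strand, so reads there cannot be assigned to one gene.

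Csf2, the gene of GM-CSF (chr11:54247271-54249667, minus strand), was close to the limit of detection, with 2 to 23 reads in a library. Its levels were 0.647, 0.726, 0.825 and 0.446 CPM at day 0 and 1.13, 0.837, 1.26 and 0.595 CPM at day 7. They were 0.295, 1.08, 0.858 and 0.543 CPM at day 14 and 0.124, 0.285 and 0.471 CPM at day 21. Day 21 was the lowest group, with all 3 libraries below all of day 7 but not below all of day 0. Against day 0 the log2 fold change was 0.54 (SE 0.43, adjusted p = 0.384), 0.07 (SE 0.44, adjusted p = 0.918) and -1.14 (SE 0.53, adjusted p = 0.115) at days 7, 14 and 21. From day 7 to day 21 Csf2 fell by 1.68 on the log2 scale (SE 0.51, adjusted p = 0.0439). That call was lost when any of 5 libraries was left out, with -1.60 without day 7 replicate 1, -1.74 without replicate 2, -1.52 without replicate 3, -1.35 without day 21 replicate 1 and -1.68 without replicate 2. The adjusted p ranged from 0.0262 to 0.231 over all alternatives.

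Csf2ra, the alpha chain that binds GM-CSF (ENSMUSG00000059326, chr19:61223957-61228429, minus strand), rose between day 7 and day 14. It was at 55.8, 60.9, 82.1 and 68.5 CPM at day 0 and at 83.7, 71.7, 75.5 and 71.8 CPM at day 7. It then reached 129.9, 134.3, 155.1 and 141.6 CPM at day 14, with 101.7, 95.3 and 141.5 CPM at day 21. Days 0 and 7 overlapped, and all libraries of days 14 and 21 lay above both. The log2 fold change was 0.18 (SE 0.14, adjusted p = 0.358) at day 7, 1.07 (SE 0.14, adjusted p = 4.52e-05) at day 14 and 0.76 (SE 0.15, adjusted p = 0.00133) at day 21, and it was 0.89 (SE 0.14, adjusted p = 0.0042) for day 14 against day 7. The day 14 rise over day 0 passed under each of the 20 alternatives run. At day 21 the call rested on replicate 3, without which the value was 0.52 (adjusted p = 0.0146), under the fold threshold.

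Csf2rb, the signalling beta chain (ENSMUSG00000071713, chr15:78325752-78353847, plus strand), was at 59.4, 74.8, 62.4 and 51.4 CPM at day 0 and at 86.8, 75.5, 75 and 102.6 CPM at day 7. It reached 107.5, 102.5, 111.3 and 105.1 CPM at day 14, and 95.7, 67.4 and 129.2 CPM at day 21. The day 14 libraries lay within a few CPM of each other and above all of day 0, while day 21 replicate 2 fell back among the day 0 libraries. The log2 fold change was 0.45 (SE 0.17, adjusted p = 0.0582), 0.78 (SE 0.17, adjusted p = 0.00241) and 0.65 (SE 0.18, adjusted p = 0.0128) at days 7, 14 and 21. The day 21 call was lost without day 21 replicate 3 (0.35, adjusted p = 0.141) or day 0 replicate 4 (0.54), and in a fit of days 0 and 21 alone (0.62, adjusted p = 0.0534).

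Mice carry a near copy of the beta chain gene, Csf2rb2, whose product serves IL-3 and which lies beside Csf2rb (chr15:78282507-78305721, minus strand). It rose from 14.7 ± 1.38 CPM (SD, n = 4) at day 0 to 30 ± 4.72 (n = 4), 42.8 ± 5.65 (n = 4) and 45.5 ± 14.8 CPM (n = 3), with log2 fold changes of 1.03, 1.54 and 1.63 and adjusted p of 0.00112, 2.03e-05 and 2.87e-05. The annotated transcripts of the 2 genes share 2.30% of the 150-base windows of Csf2rb and 12.3% of its 50-base windows, which are 3.34% and 18.4% of those of Csf2rb2. A read lying wholly within such a stretch could align to both genes and be left out of the counts. A read that reaches beyond the stretch can still be placed, so the shorter windows may overstate any loss. No alignments were examined, and how many reads were lost was not tested. Both levels are uncertain to that extent, that of Csf2rb2 over the larger share of its sequence.

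The alpha and beta chains moved apart in time. Log2 CPM of Csf2rb minus that of Csf2ra ran from -0.41 to 0.30 at day 0, from -0.01 to 0.52 at day 7, from -0.48 to -0.27 at day 14 and from -0.50 to -0.09 at day 21. All day 14 and day 21 libraries lay below all day 7 libraries, but day 0 overlapped each later day. The difference was not tested.

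**Figure D2:**
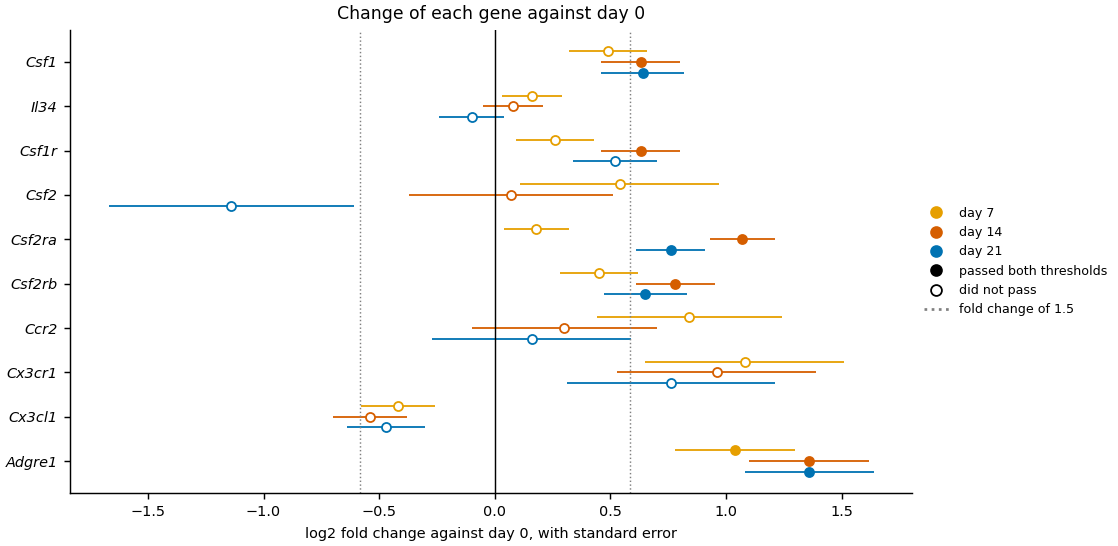
Log2 fold change of each of the 10 genes against day 0 on the horizontal axis, at day 7 (yellow), day 14 (orange) and day 21 (blue), with bars of 1 standard error. Filled points passed both thresholds, open points did not, and the dotted lines mark a fold change of 1.5. The Csf1, Csf1r and Csf2rb points sit between 0.63 and 0.78 at day 14, just past the dotted line, while Csf2ra (1.07) and Adgre1 (1.36) sit well beyond it.

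Ccr2, the receptor of inflammatory monocytes for CCL2 (ENSMUSG00000049103, chr9:124101950-124113557, plus strand), varied as much within a day as between days. It was at 92.1, 79.1, 31.1 and 30.3 CPM at day 0 and at 153.8, 91.6, 104.8 and 64.6 CPM at day 7. It was at 74, 56, 73.9 and 82.8 CPM at day 14 and at 28.3, 59.7 and 106.8 CPM at day 21. Day 0 fell into a high and a low pair of libraries, which were the pairs with a low and a high mitochondrial share. The log2 fold changes were 0.84 (SE 0.40, adjusted p = 0.138), 0.30 (SE 0.40, adjusted p = 0.595) and 0.16 (SE 0.43, adjusted p = 0.815) at days 7, 14 and 21. Among libraries with a mitochondrial share over 3.5% (2 of day 0 and 3 of day 14), Ccr2 was 1.19 higher at day 14 on the log2 scale (SE 0.18, adjusted p = 0.00394). Among libraries under 2.5% (2 of day 0 and 4 of day 7) the day 7 value was 0.26 (adjusted p = 0.541). The part of the mitochondrial share in these values was not tested.

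Cx3cr1, the fractalkine receptor (ENSMUSG00000052336, chr9:119901616-120069879, minus strand), followed Ccr2 from library to library. Levels were 19.7, 21.8, 9.21 and 13 CPM at day 0, 51.5, 30.8, 36.7 and 16.2 CPM at day 7, 24.6, 22.4, 33.9 and 43.3 CPM at day 14, and 9.28, 24.6 and 47 CPM at day 21. All day 14 libraries lay above day 0, if by little, and single libraries of days 7 and 21 fell among those of day 0. The log2 fold change was 1.08 (SE 0.43, adjusted p = 0.0738), 0.96 (SE 0.43, adjusted p = 0.0949) and 0.76 (SE 0.45, adjusted p = 0.227). Day 7 passed without its replicate 4 (1.31, adjusted p = 0.0372), whereas it was 0.69 (adjusted p = 0.415) under the mitochondrial covariate and 0.68 (adjusted p = 0.212) among libraries under 2.5%. Day 21 was 0.05 (adjusted p = 0.951) without its replicate 3 and 1.13 (adjusted p = 0.0557) without its replicate 1. Day 14 passed with the log2 mitochondrial share as a covariate (1.18, adjusted p = 0.0453), and likewise among libraries over 3.5% (1.56, adjusted p = 0.00996). Log2 CPM of Ccr2 minus that of Cx3cr1 ran from 1.22 to 2.22 at day 0, 1.51 to 1.99 at day 7, 0.93 to 1.58 at day 14 and 1.18 to 1.59 at day 21, so that all days overlapped.

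Cx3cl1, the tethered chemokine of endothelium and epithelium (ENSMUSG00000031778, chr8:94772009-94782427, plus strand), was the only one of the 10 genes with a negative log2 fold change at all 3 days. It measured 46.2, 34.7, 39.6 and 56.2 CPM at day 0 and 36.6, 29.9, 39.3 and 26.5 CPM at day 7. It measured 29.7, 32.6, 29.1 and 30 CPM at day 14 and 27.8, 38.7 and 29.2 CPM at day 21. All day 14 libraries lay below all of day 0, which held for 14.4% of all genes. The log2 fold changes were -0.42 (SE 0.16, adjusted p = 0.065), -0.54 (SE 0.16, adjusted p = 0.0162) and -0.47 (SE 0.17, adjusted p = 0.0507), and the fold stayed under 1.5 at each day. Day 14 passed if day 0 replicate 2 (-0.67), day 0 replicate 3 (-0.61) or day 14 replicate 2 (-0.60) was left out, and day 21 if day 0 replicate 2 (-0.60) or its own replicate 2 (-0.67) was.

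Adgre1, the F4/80 gene (ENSMUSG00000004730, chr17:57358691-57483527, plus strand), rose at day 7 and stayed up. It was at 37.7, 35.1, 23 and 23.6 CPM at day 0 and at 72.5, 59.3, 54.2 and 59.9 CPM at day 7. It was at 122.2, 68.5, 53.1 and 62.8 CPM at day 14 and at 77.3, 49.5 and 103.2 CPM at day 21. Every library after bleomycin lay above every day 0 library. The log2 fold change was 1.04 (SE 0.26, adjusted p = 0.0104) at day 7 and 1.36 at both day 14 (SE 0.26, adjusted p = 0.00119) and day 21 (SE 0.28, adjusted p = 0.002). The day 14 and day 21 calls held under each of the 20 and 18 alternatives run. At day 7 the value was 0.58 (adjusted p = 0.0939) once the mitochondrial share entered the fit and 0.74 (adjusted p = 0.00632) among libraries with a share under 2.5%.

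For 6 of the 10 genes (Csf1, Csf1r, Csf2ra, Csf2rb, Cx3cr1 and Adgre1) all day 14 libraries lay above all day 0 libraries, which held for 16.8% of all genes. The number was 2 at day 7 (Csf2rb and Adgre1), beside 17.6% of all genes, and 4 at day 21 (Csf1, Csf1r, Csf2ra and Adgre1), beside 19.4%.

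Csf1r and Adgre1, both markers of macrophages, did not rise in step. Within a library, log2 CPM of Csf1r minus that of Adgre1 was 2.20, 2.20, 2.60 and 2.44 at day 0. It was 1.43, 1.46, 1.75 and 1.60 at day 7, 1.44, 1.49, 1.88 and 1.78 at day 14, and 1.47, 1.86 and 1.30 at day 21. No library after bleomycin reached the day 0 range, including both day 0 pairs, and no test was made.

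**Figure D3:**
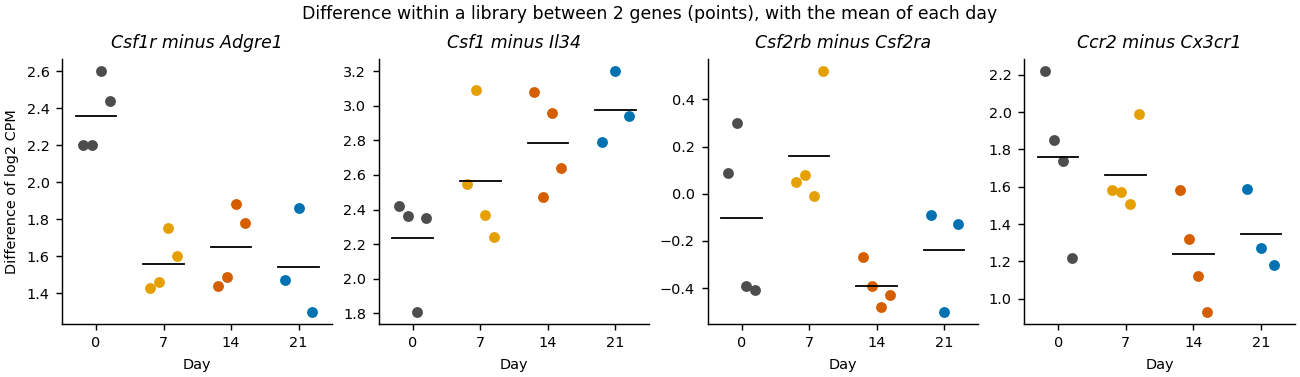
Difference of log2 CPM between 2 genes within each library, by day, for Csf1r minus Adgre1, Csf1 minus Il34, Csf2rb minus Csf2ra and Ccr2 minus Cx3cr1. Each point is a library and the bar is the mean of the day, and the vertical axes do not start at 0. The first panel shows day 0 between 2.20 and 2.60 and all later libraries at or below 1.88.

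The order of the genes was compared on RPKM, the CPM divided by exon length in kilobases. At day 0, Csf1r (26.2 ± 3.48 RPKM, SD, n = 4) and Csf2ra (23.3 ± 3.99) were the most abundant and overlapped. Csf1 (11.6), Cx3cl1 (11.2), Adgre1 (9.22), Ccr2 (8.6) and Csf2rb (8.52) followed, each overlapping the gene above except Csf1. Il34 (6.57 ± 0.333), Cx3cr1 (3.54 ± 1.3) and Csf2 (0.826 ± 0.201) each lay wholly below the gene next above in the order. Il34 and Cx3cr1 still overlapped Ccr2, whose libraries ran from 4.49 to 13.6 RPKM. By day 14 the order was Csf2ra (48.8 ± 3.85 RPKM), Csf1r (40.5 ± 11.5), Adgre1 (23.7), Csf1 (18.1), Csf2rb (14.6), Ccr2 (10.6), Cx3cl1 (7.72), Il34 (6.96), Cx3cr1 (6.89) and Csf2 (0.869). Csf2ra and Csf1r still overlapped, so their exchange of places was within the spread. Adgre1 moved from below Csf1 and Cx3cl1 at day 0 to a mean above both at days 7, 14 and 21, with 23.7 ± 8.3 RPKM at day 21 (n = 3), and its libraries overlapped those of Csf1 at each of these days.

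Several of these genes moved with the mitochondrial share among libraries of the same day. Over the 15 libraries, deviations of log2 CPM from the day mean had a Pearson r with those of the log2 share of -0.80 for Csf1r, -0.78 for Adgre1, -0.67 for Ccr2, -0.45 for Csf1 and -0.41 for Cx3cr1, while Csf2ra gave 0.38. These points share library depth and preparation, and r is given as a description. With the share as a covariate, the counts of changed genes among the 10 were 0 at day 7, 6 at day 14 and 4 at day 21, beside 7.27%, 24.0% and 23.7% of all genes tested in that fit. At day 14 the 5 genes changed without it all passed again, with Cx3cr1 added. Among libraries with a share under 2.5%, 1 of the 10 passed at day 7 (Adgre1), beside 12.8% of the genes tested there. Among libraries with a share over 3.5%, 7 of the 10 passed at day 14, beside 17.7% of the genes tested there. They were Csf1, Csf2ra, Csf2rb, Ccr2, Cx3cr1, Adgre1 and, as lower, Cx3cl1 (-0.66, adjusted p = 0.0379), while Csf1r did not (0.57, adjusted p = 0.0247). Against day 7, where the covariate fit called 1.25% of all genes at day 14 and 5.40% at day 21, it gave Csf1r as higher at day 14 (0.71, adjusted p = 0.0312) and day 21 (0.60, adjusted p = 0.0296), Csf2ra at day 14 (0.76, adjusted p = 0.0411) and Adgre1 at day 21 (0.87, adjusted p = 0.0327), while the fall of Csf2 from day 7 to day 21 no longer passed (-1.84, adjusted p = 0.0892). All day 7 libraries had a low share, so that day and share are partly confounded.

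**Figure D4:**
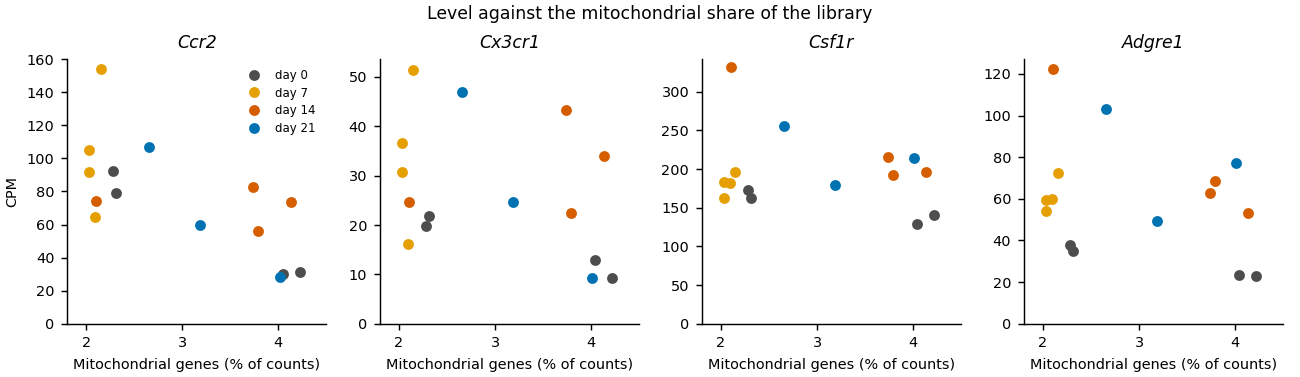
CPM of Ccr2, Cx3cr1, Csf1r and Adgre1 on the vertical axis against the share of counts from mitochondrial genes in percent, with each point a library coloured by day. Day 0 forms a pair near 2.3% and a pair above 4.0%, and the second pair lies lower for all 4 genes.

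Libraries of a single day also ranked alike for pairs of these genes. The r of deviations from day means was 0.92 for Csf1r and Adgre1 and 0.91 for Ccr2 and Cx3cr1. The mean log2 CPM of the 16 monocyte recruitment genes described below gave 0.90 with Adgre1 and 0.75 with Csf1r. Other lists described below gave similar values, so this was not particular to recruitment genes. For Adgre1, r was 0.84 with the common macrophage, 0.80 with the signalling, 0.78 with the interstitial macrophage and 0.70 with the classical monocyte list. For Csf1r the same lists gave 0.70, 0.71, 0.74 and 0.69.

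Receptors and ligands near these in function were taken from a list of 13 genes, of which 10 were tested. At days 7, 14 and 21, 3, 3 and 1 of them rose and 2, 3 and 2 fell, with median log2 fold changes of 0.04, -0.23 and -0.08. Il3ra, the IL-3 receptor alpha chain, rose at day 14 (14.2 to 24.4 CPM, log2 fold change 0.78, adjusted p = 0.00353). Il5ra, the IL-5 receptor alpha chain, fell by 2.28 on the log2 scale at day 14 (adjusted p = 0.0115) from only 0.978 CPM. Flt3l, the growth factor of dendritic cells, fell from 25.8 CPM at day 0 to 6.38, 8.15 and 8.81 CPM, with log2 fold changes of -2.01, -1.66 and -1.55 (adjusted p = 0.001, 0.00182 and 0.00602). Growth factor and receptor genes of this family thus moved in both directions.

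Downstream of these receptors, 27 signalling and lineage factor genes gave 4, 6 and 5 that rose and 0, 3 and 3 that fell at days 7, 14 and 21, with medians of 0.18, 0.22 and 0.22. Socs3, a feedback inhibitor of JAK-STAT signalling, rose from 61.6 CPM to 142.3, 162.0 and 210.5 CPM (log2 fold change 1.21, 1.39 and 1.77, adjusted p = 0.000933, 0.000146 and 4.25e-05). Tyrobp, the adaptor of many myeloid receptors, rose at days 14 (1.05, adjusted p = 0.000409) and 21 (0.73, adjusted p = 0.00839), and the second call was lost without day 0 replicate 4 (0.58) or day 21 replicate 3 (0.46). Stat5b, which carries GM-CSF signals, fell at both of those days (-0.62 at each, adjusted p = 0.00075 and 0.00157), close to the fold threshold, which it missed without day 14 replicate 1 (-0.57) or day 21 replicate 1 (-0.54). Cebpa, a factor of myeloid and lung epithelial cells, fell as well (-0.66 at day 14, adjusted p = 0.0037, and from 128.4 to 64.3 CPM by day 21, adjusted p = 0.000457), though not at day 14 without its replicate 3 (-0.57). Spi1, the gene of PU.1, was at 55.2, 69.7, 82.8 and 74.6 CPM on the 4 days and passed at none (0.58 at day 14, adjusted p = 0.0399). It was named here for its motif and not by the size of its change.

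Among 16 genes of monocyte recruitment, 9, 10 and 10 rose, with medians of 0.64, 1.04 and 0.84. Ccl2, the ligand of CCR2, was at 0.615 CPM at day 0 and at 15.9, 12.7 and 18.8 CPM afterwards (log2 fold change 4.66, 4.33 and 4.90, adjusted p = 8.48e-05, 5.68e-05 and 3.59e-05), the last at 4.28 without day 21 replicate 1. Ccl8, another monocyte chemokine, rose from 1.35 to 16.4, 24.7 and 17.4 CPM (3.60, 4.19 and 3.69, adjusted p = 0.000233, 2.71e-05 and 0.000122). Its highest level at day 14 was 54.2 CPM in replicate 1, against 9.38 to 21.7 CPM in the others, and without that library the day 14 value was 3.43. The receptor Ccr2 itself passed at none of these days. Cxcr4, which holds cells in the marrow, fell at days 7 and 21 (-0.79 and -0.72, adjusted p = 0.00465 and 0.0101).

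Markers of macrophages moved most often upward. Of 10 genes common to macrophages, 8, 7 and 7 rose and none fell (medians 1.27, 1.53 and 1.49), among them the scavenger receptor Msr1 from 5.49 to 37.1, 72 and 82.6 CPM and the Fc receptor Fcgr1 from 6.28 to 17.1, 27.6 and 25.7 CPM. Their summed level overlapped between days, at 6893 to 8117 CPM at day 0, 4077 to 7437 at day 7, 5297 to 9532 at day 14 and 4050 to 7271 at day 21, most of it from Lyz2, which alveolar type II cells also express. Of 11 interstitial macrophage genes, 4, 6 and 8 rose and none fell (medians of 1.75 and 1.94 at days 14 and 21), with C1qb at 30.2, 170.0, 273.8 and 301.3 CPM and Ms4a7 at 3.51, 15, 26.5 and 28.2 CPM over days 0, 7, 14 and 21. Their sum was 1443 to 1745 CPM at day 0, 2164 to 2870 at day 7, 2696 to 7982 at day 14 and 3968 to 5986 at day 21.

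Of 11 alveolar macrophage genes, 0, 3 and 2 rose and 4, 4 and 5 fell (medians -0.47, -0.30 and -0.43). Fabp1 (-5.28) and Krt79 (-4.49) fell at day 14, whereas the scavenger receptor Marco (2.44, adjusted p = 0.0236) and the zinc transporter Slc39a2 (1.64, adjusted p = 0.00414) rose. Marco stood at 434.1 CPM in day 14 replicate 2 and at 21.1 to 49 CPM in the other day 14 libraries. Without that library its value was 0.50 (adjusted p = 0.429), and the call was also lost without day 0 replicate 1 (2.30), replicate 2 (2.45) or replicate 3 (2.40). Slc39a2 ranged from 1.01 (without day 14 replicate 2) to 1.91 at day 14 when a library was left out and passed each time. Fabp1 was at -6.00 without day 14 replicate 2. The summed level of this list was 927.9 to 1319 CPM at day 0, 704.0 to 1400 at day 7, 1118 to 3698 at day 14 and 1336 to 2585 at day 21, which lay wholly above day 0. Most of this sum was Chil3, also made by other macrophages, at 756.7, 694.1, 1561 and 1585 CPM, which passed at no day (adjusted p = 0.0702 at day 21).

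Monocyte markers gave mixed counts. Of 8 classical monocyte genes tested, 1, 2 and 2 rose and 0, 1 and 2 fell (medians 0.07, -0.22 and -0.21). Vcan rose at all 3 days (1.83, 1.23 and 1.40) and Ms4a6c at days 14 and 21 (0.86 and 1.18), while Ms4a4c fell at days 14 and 21 (-1.97 and -2.31) and Ifitm6 at day 21 (-2.53). The Vcan call was lost at day 14 without day 0 replicate 3 (0.95) or 4 (1.05) or day 14 replicate 1 (0.62), and at day 21 without day 0 replicate 3 (1.11) or 4 (1.21) or day 21 replicate 1 (1.16) or 3 (1.25). That of Ms4a6c at day 14 was lost without day 0 replicate 3 (0.74) or 4 (0.69) or day 14 replicate 1 (0.48). Ms4a4c at day 21 was at -3.04 without its replicate 3. The sum of the list was 101.3 to 226.2 CPM at day 0 and 139.2 to 365.5 CPM at day 14. Of 10 nonclassical monocyte genes, none rose and 2, 5 and 4 fell (medians -0.66, -0.87 and -0.75), among them Nr4a1, on which these cells depend but which is also an immediate early gene (310.4 CPM at day 0 and 42.1, 52 and 42.6 CPM later), and Cd300e (3.57 to 1.41, 0.389 and 0.586 CPM). Nr4a1 was at 78, 27.6, 337.8 and 798.3 CPM in the day 0 libraries. Without replicate 4, whose treatment label is in doubt, its log2 fold change went from -2.58 to -1.53 at day 14 (adjusted p = 0.0611), where the call was lost, and from -2.88 to -1.84 at day 7 and from -2.87 to -1.83 at day 21. The Cd300e call at day 7 (-1.33) was lost without day 0 replicate 3 (-1.21) or 4 (-1.31) or day 7 replicate 3 (-1.14) or 4 (-1.20). The sum of the list was 1164 to 2249 CPM at day 0, 941.6 to 1249 at day 7, 952.9 to 1070 at day 14 and 1447 to 1651 at day 21, which lay within the day 0 range, most of it from Ace, which lung endothelium also expresses. Cx3cr1, a defining gene of the same cells, passed in neither direction.

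**Figure D5:**
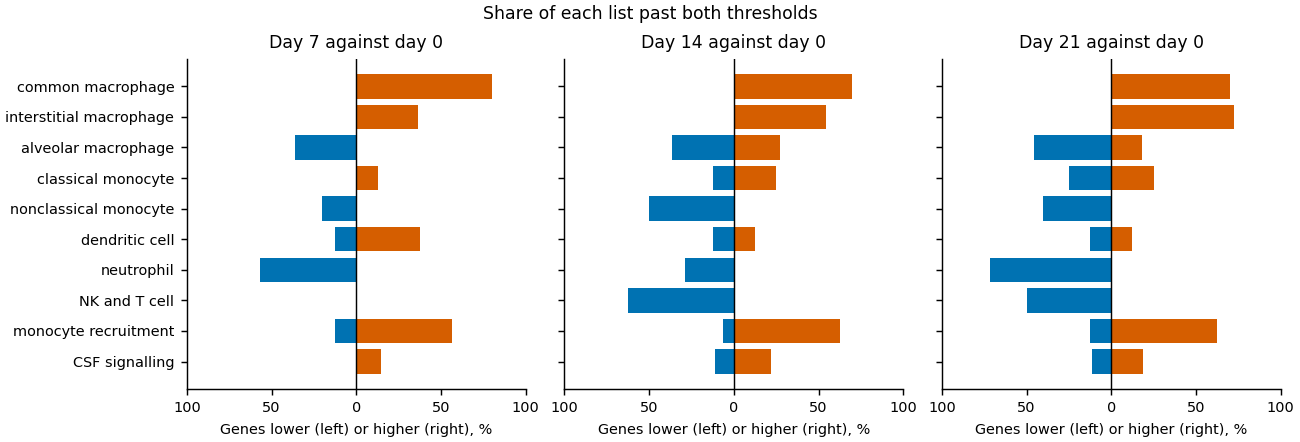
Share of the tested genes of 10 lists that fell (blue, to the left) or rose (orange, to the right) past both thresholds against day 0, in percent, at days 7, 14 and 21. Lists hold 7 to 27 tested genes. The common and interstitial macrophage lists extend only to the right, and the neutrophil, NK and T cell and nonclassical monocyte lists only to the left.

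Other leukocytes that carry these receptors were followed by their own markers. Of 7 neutrophil genes none rose and 4, 2 and 5 fell (medians -1.86, -0.99 and -2.50), among them Csf3r, the receptor of the granulocyte growth factor (167.0 CPM at day 0 and 44.8, 57.8 and 31.8 CPM later), and Cxcr2 (64 to 18.8, 19.8 and 8.86 CPM). Of 8 dendritic cell genes, 3, 1 and 1 rose and 1 fell at each day (medians 0.53, -0.11 and -0.30). Itgax, also a gene of alveolar macrophages, rose at all 3 days (0.81, 1.30 and 1.12) and Clec9a fell at all 3 (-1.09, -1.26 and -1.13), while Flt3 (0.91) and Itgae (1.33) rose at day 7. The Flt3 call was lost without day 0 replicate 1, 3 or 4 or day 7 replicate 1, 3 or 4 (0.77 to 0.93), and that of Itgax at day 7 without any day 0 library or day 7 replicate 1 or 3 (0.62 to 0.84) and at day 21 without its replicate 3 (0.50, adjusted p = 0.114).

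Of 8 NK and T cell genes none rose and 0, 5 and 4 fell (medians -0.37, -1.51 and -1.58), with Gzma down by day 14 (-2.15, adjusted p = 0.00492) and Ncr1 likewise (-2.21, adjusted p = 0.00926). Of 3 tested eosinophil genes Ear6 rose (3.01, adjusted p = 0.0472) and Il5ra fell at day 14, and none passed at days 7 and 21. Ear6 was at 9.76 CPM in day 14 replicate 2 and at 0.483 to 1.48 CPM in the others. Its call was lost without that library (1.46, adjusted p = 0.326) and without day 0 replicate 1 (2.71), replicate 2 (2.58) or replicate 3 (2.77), and the value was 4.84 without replicate 4. Of 11 genes of lung structure and of all leukocytes, 1 rose at each day, which was the collagen gene Col1a1 (313.2 to 1437, 2282 and 2483 CPM), and 2, 5 and 4 fell (medians -0.35, -0.51 and -0.50), among them Scgb1a1 of club cells (-1.59, -2.47 and -3.17) and Sftpc at days 14 and 21 (-0.99 and -2.39). The Sftpc call at day 14 was lost without day 0 replicate 1, 2 or 3 or day 14 replicate 1, 2 or 3 (-1.11 to -0.74). Ptprc, the leukocyte gene of CD45, was at 185.2, 141.2, 140.1 and 130.6 CPM and did not pass. Col1a1 at day 14 was at 5084 CPM in replicate 1 and at 990.8 to 1558 CPM in the others, and its log2 fold change went from 2.87 to 2.08 without replicate 1. Ptprc was named after its values were seen.

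Some of these list calls also changed with the mitochondrial share. With it as a covariate, the day 7 calls of Nr4a1 (-1.22, adjusted p = 0.338), Cd300e (-0.96), Clec9a (-0.67), Flt3 (0.73), Itgae (1.15) and Itgax (0.79) were lost, and Flt3l (-1.19), Vcan (1.16) and Ccl8 (2.92) passed with smaller values. Among libraries under 2.5%, Nr4a1 was at -0.34 (adjusted p = 0.516) at day 7, and its day 0 levels were low in the pair under 2.5% and high in the other. Cd300e (-1.06), Flt3 (0.77) and Itgae (1.03) did not pass there either. Among libraries over 3.5%, the day 14 calls of Csf3r (-0.90, adjusted p = 0.106), Cxcr2 (-0.62, adjusted p = 0.206), Gzma (-1.69, adjusted p = 0.0564), Ncr1 (-1.40, adjusted p = 0.178), Ms4a4c (-1.05, adjusted p = 0.192), Il3ra (0.50), Stat5b (-0.51), Slc39a2 (1.45), Marco (2.61), Ear6 (2.40) and Sftpc (-0.80) were lost, in a fit of fewer libraries, while Col1a1 (2.23) and Nr4a1 (-3.32) passed. The part of the share in these values was not tested.

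The part of any of these cell types in the levels of the 10 genes was not tested.

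The genes whose log2 CPM most resembled each of the 10 over the 15 libraries were sought among 11817 genes with a mean of at least 5 CPM. Csf1r was nearest to Nckap1l (Pearson r = 0.925), March1 (0.925) and Adgre1 (0.915), with r of 0.91, 0.85 and 0.92 once day means were removed. Adgre1 was nearest to Itgb1 (0.981), Rtn4 (0.968) and Cd86 (0.961), with 0.95, 0.91 and 0.91 within days. Csf2rb was nearest to the integrin gene Itgb2 (0.936), Rcbtb2 (0.916) and Csf2rb2 (0.907). Csf2ra was nearest to Gpr137b (0.957), Cdc7 (0.944) and F7 (0.94), with a lower r of 0.66, 0.79 and 0.76 within days.

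Ccr2 was nearest to Rab14 (0.917), Rhoa (0.905) and Cx3cr1 (0.896), and Cx3cr1 to Ccr2 (0.896), Dnmt1 (0.893) and Tnip1 (0.88), with r of 0.88 to 0.93 within days. Csf1 was nearest to Daglb (0.928), Nrp2 (0.908) and Ncoa4 (0.907). Il34 was nearest to H2-DMa (0.906), Med29 (0.895) and Txndc12 (0.892), and Cx3cl1 to Tef (0.864), Foxj2 (0.841) and Rcsd1 (0.84). These values are descriptions over libraries that share depth and day, and Csf2, with a mean under 5 CPM, was left out.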

How the data were processed

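The authors trimmed reads with TrimGalore, aligned them to mm10 (GRCm38) with HISAT2 2.1.0, left out multi-mapped reads and deposited raw counts per Ensembl gene from HTSeq 0.6.0, with no normalization. The annotation release and strand setting are not given in the sources used here. The submitters' processing notes also name DESeq2 1.40.2.

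Symbols and exon lengths came from GENCODE M21, which matched 33267 identifiers. Counts were fitted with edgeR 4.0.16 in R 4.3.3 (filterByExpr, TMM, glmQLFit, glmQLFTest) on the 4 day groups of all 15 libraries, with no other covariate. The biological coefficient of variation was 22.8%. Adjusted p is Benjamini-Hochberg over the 17457 genes tested, two-sided. CPM use TMM-scaled library sizes, and log2 CPM a prior count of 2. The scripts were tested on simulated data.

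The 10 genes and all lists were chosen with earlier results of these data known. From each list, genes passing against day 0 were named, up to 2 in each direction with the largest log2 fold change at day 14. Of 150 list genes, 3 stand in more than 1 list. A few list results are not reported here. Likeness took the 3 highest correlations, without predicted genes. Alternatives were DESeq2 1.42.0, limma 3.58.1 voom, RLE factors or total counts, other filters and thresholds, the mitochondrial share as a covariate, a replicate block, fits of 2 groups and leaving out each library. Fits within libraries under 2.5% or over 3.5% mitochondrial share were chosen after seeing the data.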

Additional observations from a re-analysis of the deposited data

Results flagged for a closer look

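A single library stood apart from the other 3 of its day in 4 of 42 groups of 4 libraries, where chance flags about 5%. Csf1r in day 14 replicate 1 was at 332.1 CPM, against 192.7 to 215.5 CPM in the others. That library had a mitochondrial share of 2.10%, against 3.74% to 4.14% in the others, and its Adgre1 level of 122.2 CPM was also the highest of its day. The part of the share in this was not tested. Log2 CPM of Ccr2 minus Cx3cr1 was 1.99 in day 7 replicate 4, against 1.51 to 1.58 in the others of that day. The difference of Csf2rb minus Csf2ra in the same library was 0.52, against -0.01 to 0.08. Csf1 minus Il34 was 1.81 in day 0 replicate 3, against 2.35 to 2.42.

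The effects of 2 days against day 0 differed by the edgeR test between those days for 2 genes. Csf2ra differed between day 14 and day 7 by 0.89 on the log2 scale (adjusted p = 0.0042), with 4 of 4 day 14 libraries above all day 7 libraries. Csf2 differed between day 21 and day 7 by -1.68 (adjusted p = 0.0439), with 3 of 3 day 21 libraries below all day 7 libraries, on 2 to 8 reads a library at day 21.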

How the results depend on the processing

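Of 613 values recomputed for the 10 genes against day 0, for Csf2ra between days 14 and 7 and for Csf2 between days 21 and 7, 555 kept their direction and side of the thresholds, 18 passed where they had not, 32 no longer passed and 8 changed sign. The sign changes among these were in values that passed in no fit: Csf1r at day 7 once the mitochondrial share entered as a covariate (-0.04), Csf2 at day 14 under limma voom (-0.04) and without day 0 replicate 4 (-0.10), day 14 replicate 2 (-0.24) or day 14 replicate 3 (-0.05), with leave-outs from -0.24 to 0.30, and Ccr2 at day 21 without day 0 replicate 3 (-0.08), day 0 replicate 4 (-0.08) or day 21 replicate 3 (-0.44), with leave-outs from -0.44 to 0.49. Of the 10 genes, day 7 against day 0 gave 1 changed, with 2 under no filter, adjusted p alone or the 2 groups alone, 0 under the covariate or glmTreat, and 1 to 3 leaving out a library (3 without day 7 replicate 4). Day 14 against day 0 gave 5, with 2 under glmTreat and 3 to 6 leaving out a library (3 without day 14 replicate 1). Day 21 against day 0 gave 4, with 1 under glmTreat and 1 to 5 leaving out a library (1 without day 21 replicate 3). Day 14 against day 7 gave 1 (Csf2ra), with 2 under the covariate (Csf1r added) and 0 under glmTreat. Day 21 against day 7 gave 1 (Csf2), with 2 under the covariate (Csf1r and Adgre1, without Csf2) or adjusted p alone (Csf2 and Csf2ra), 0 under no filter, glmTreat or the 2 groups alone, and 0 to 1 leaving out a library. The cause of these shifts was not tested, except that glmTreat and adjusted p alone change the threshold itself.

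Same-numbered libraries of different days did not steadily deviate together. Their r ran from -0.244 to 0.397 over 21 pairs (median 0.0406, 8 above 0.1), and 7 of 15 libraries were nearest to their own number. No chance level was worked out for these values, so a pairing in part of the libraries cannot be told, and the numbers were not taken as one. With the replicate number as a block, the 6 counts among the 10 genes were 1, 5, 4, 1, 1 and 0, and those over all genes 2915, 4113, 3752, 1184, 1651 and 0. Among the list genes named, the block ended the day 14 calls of Marco (1.83) and Ear6 (2.88) and the day 21 call of Nr4a1 (-2.24), and limma voom ended the day 14 calls of Marco (1.37) and Ear6 (3.19) and those of Nr4a1 at days 7, 14 and 21 (-1.90, -1.66 and -1.92). The 2 groups alone ended the day 14 calls of Vcan (adjusted p = 0.0793), Ms4a6c (0.0641), Sftpc (0.059) and Ear6 (0.0571) and the day 21 call of Nr4a1 (0.0526), and total counts as scaling ended that of Ear6 (0.0502). Under glmTreat, the calls of Cd300e, Clec9a, Csf2rb2, Cxcr2, Cxcr4, Flt3, Itgae, Itgax and Vcan at day 7, of Cebpa, Ear6, Il3ra, Marco, Ms4a6c, Sftpc, Stat5b and Vcan at day 14, and of Clec9a, Cxcr4, Itgax, Ms4a6c, Stat5b, Tyrobp and Vcan at day 21 were not made. Csf2 could not be tested at a mean of at least 1 CPM. Over all genes, day 7 against day 0 gave 2818 changed, with 4365 by adjusted p alone, 1269 under the covariate and 703 under glmTreat. Days 14 and 21 against day 0 gave 4040 and 3924, with 1755 and 1754 under glmTreat. Day 14 against day 7 gave 1048, with 1642 in DESeq2, 218 under the covariate, 14 under glmTreat and 340 to 522 without day 7 replicate 1, 3 or 4 or day 14 replicate 2 or 3. Day 21 against day 7 gave 1665, with 942 under the covariate, 176 under glmTreat and 966 to 1096 without day 7 replicate 1, 3 or 4 or day 21 replicate 1. Day 21 against day 14 gave 0, with 37 under no filter and 3 to 127 without day 14 replicate 1 or day 21 replicate 2 or 3.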
